A study of Mus musculus with 18 samples.

Results

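Acetylcholine acts on brain cells through 2 receptor families, and the 10 genes described here code for 4 muscarinic receptors (Chrm1, Chrm2, Chrm3 and Chrm4) and 6 nicotinic receptor subunits (Chrna3, Chrna4, Chrna7, Chrnb2, Chrnb3 and Chrnb4). They were taken by gene symbol, and all 10 were present among the 48440 genes measured. The libraries come from Diversity Outbred mice, outbred animals bred from several inbred founder strains, in a study of short-term memory. There were 18 libraries, 3 from high performing and 3 from low performing mice in each of 3 tissues, labelled MDTH, HPF and prefrontal cortex (PFC). The labels give no age, sex or allele, and do not spell out MDTH or HPF. They do not say that each library is a separate animal, and a p-value here therefore reflects library-to-library spread only.

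Muscarinic receptors couple to G proteins. The M1 and M3 types act through Gq and phospholipase C and tend to excite a neuron, whereas the M2 and M4 types act through Gi/o and lower cAMP or open potassium channels. Nicotinic receptors are cation channels built from several subunits, and the subunits set their pharmacology: those coded by Chrna4 and Chrnb2 form the main high-affinity receptor of the brain, with dense binding in thalamus, that of Chrna7 can form a channel alone, and those of Chrna3 and Chrnb4 form the ganglionic type that the medial habenula also uses.

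Upstream sequences are shown for the subunit genes of the main high-affinity receptor, Chrna4 and Chrnb2, and of the ganglionic type, Chrna3 and Chrnb4. Each is the stretch of 250 bases before the RefSeq start of the gene on build GRCm38.p6, all on the minus strand, with the letters of the GC box GGGCGG in capitals on either strand. Chrna4 is at chr2:181039178-181039427, Chrnb2 at chr3:89764633-89764882, Chrna3 at chr9:55026563-55026812 and Chrnb4 at chr9:55048545-55048794. The GENCODE M21 annotation starts Chrna4 and Chrnb4 further upstream than RefSeq does, so that these stretches lie within the GENCODE gene, wholly for Chrna4 and in part for Chrnb4.
Chrna4: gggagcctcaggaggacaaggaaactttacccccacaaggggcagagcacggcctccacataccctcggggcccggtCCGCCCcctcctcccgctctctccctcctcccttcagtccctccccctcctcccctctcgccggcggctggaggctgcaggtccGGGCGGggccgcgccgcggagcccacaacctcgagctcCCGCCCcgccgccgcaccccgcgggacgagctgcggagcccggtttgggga
Chrnb2: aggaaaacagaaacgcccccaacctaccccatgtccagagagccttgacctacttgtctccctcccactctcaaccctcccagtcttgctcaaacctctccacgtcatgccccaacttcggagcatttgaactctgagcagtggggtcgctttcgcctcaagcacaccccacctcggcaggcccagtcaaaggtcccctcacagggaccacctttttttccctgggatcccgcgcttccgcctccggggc
Chrna3: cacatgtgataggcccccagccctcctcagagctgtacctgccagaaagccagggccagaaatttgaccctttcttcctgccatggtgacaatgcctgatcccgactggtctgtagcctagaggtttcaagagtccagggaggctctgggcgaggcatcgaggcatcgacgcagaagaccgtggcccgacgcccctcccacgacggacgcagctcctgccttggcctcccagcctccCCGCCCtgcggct
Chrnb4: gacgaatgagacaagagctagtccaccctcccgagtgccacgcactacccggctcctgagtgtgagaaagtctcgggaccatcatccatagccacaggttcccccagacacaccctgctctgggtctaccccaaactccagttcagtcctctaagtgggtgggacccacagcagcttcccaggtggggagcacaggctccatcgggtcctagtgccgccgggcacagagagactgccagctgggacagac
The Chrna4 stretch held 3 GC boxes, and that of Chrna3 held 1, beside 0 for Chrnb2 and 0 for Chrnb4. Of 32851 RefSeq upstream stretches of this length, 32.7% held at least 1. The E-box CANNTG occurred 2 times in Chrna3 and 2 times in Chrnb4, against 1 in Chrnb2 and 0 in Chrna4, and 66.2% of all stretches held it. The letters TGACG, part of a cAMP response element, occurred 1 time, in Chrnb2, and in 17.8% of all stretches. The GC content was 74.4% for Chrna4, 59.6% for Chrnb2, 63.2% for Chrna3 and 61.2% for Chrnb4, beside a median of 52.4%. Of the 10 genes, 8 had an entry, and Chrm1 and Chrnb3 are named only.

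Values are normalized counts, a signal per gene scaled by the authors for each library. Estimated depth was 42875030 to 47535288 reads in MDTH, 76690849 to 88651810 in HPF and 41097314 to 48839372 in PFC. This rough estimate takes the most frequent low value of a library as a single read. By library, 40.8% to 77.6% of low values were whole multiples of that value. Summed levels of 8 thalamic relay markers were 136982 to 318220 in MDTH, against 10953 to 27481 in HPF and 16786 to 20369 in PFC. Those of 7 hippocampal markers were 17007 to 29326 in MDTH, 38616 to 74996 in HPF and 4426 to 9676 in PFC. Those of 7 cortical excitatory markers were 8089 to 24984 in MDTH, 72646 to 127100.3 in HPF and 109453 to 130752 in PFC, with HPF and PFC overlapping. Several libraries stood apart: MDTH low 3 was the highest MDTH library for 8 of 8 habenular and 3 of 3 cholinergic neuron markers, HPF high 2 was the highest HPF library for 7 of 8 thalamic relay, 5 of 8 habenular, 3 of 3 cholinergic neuron and 3 of 3 choroid plexus markers, and MDTH low 1 was the highest for 4 of 6 inhibitory neuron markers. The habenular and cholinergic neuron lists share Chat and Slc5a7, so their counts overlap. In PFC, summed choroid plexus markers were 141079 in high 1, 119667 in low 2 and 71219 in low 3, against 1674 to 4262 in the other libraries, and PFC low 2 was the highest for 4 of 4 oligodendrocyte markers. The library names of high and low performers are written in different styles in MDTH and in PFC, and carry different letters in HPF, where 1 lane also holds only high and another only low performers. Performance and any difference in preparation that goes with the name cannot be told apart. The HPF names carry other lanes than the rest, so tissue and lane cannot be told apart for HPF against MDTH or PFC.

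The make-up of the receptor mRNA differed by tissue. Levels were scaled by the length of each gene's merged exons so that genes could be compared, and each gene was taken as a share of the sum over the 10. Chrna4 and Chrnb2 together made up 85.4% in MDTH of high performers and 67.4% in MDTH of low performers. The pair held 15.0% in HPF of high and 11.8% in HPF of low performers, and 28.2% in PFC of high and 26.7% in PFC of low performers. The 4 muscarinic genes held 13.3% in MDTH of high performers and 21.9% in MDTH of low performers. In HPF they held 79.6% in high and 83.1% in low performers, and in PFC 67.5% in high and 69.7% in low performers. Averaged over performance, Chrm1 was first in HPF, at 64.0% of the sum, and in PFC, at 33.7%, and Chrna4 was first in MDTH, at 49.0%. With the longest transcript in place of merged exons, Chrna4 and Chrnb2 together held 84.5% in MDTH of high performers.

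**Figure D1:**
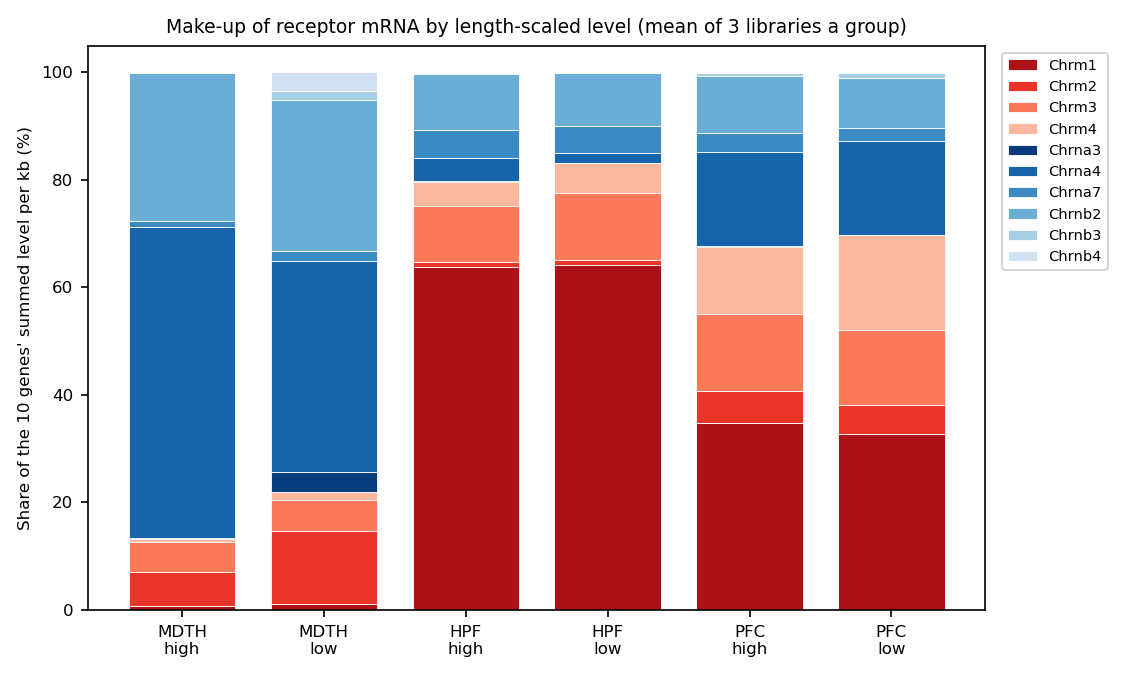
Stacked bars give each gene's share (%) of the summed length-scaled level of the 10 receptor genes, as the mean of 3 libraries in each of 6 groups, muscarinic genes in red and nicotinic genes in blue. Chrna4 and Chrnb2 fill 85.4% of the bar for MDTH high performers, and Chrm1 fills 63.7% of the bar for HPF high performers.

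Tissues were compared in a fit to all 18 libraries, averaged over performance, and a gene passed when its adjusted p in limma, with Benjamini-Hochberg adjustment over all 18254 genes tested, was below 0.05. In MDTH against PFC, 3 of 10 genes were higher (background 20.3%) and 5 of 10 lower (background 20.4%, 40.7% in either direction), and 5 of 10 did not overlap (background 17.3%). In MDTH against HPF, 5 of 10 were higher (background 29.1%) and 4 of 10 lower (background 29.0%, 58.1% in either direction), and 6 of 10 did not overlap (background 31.0%). In HPF against PFC, 2 of 10 were higher (background 21.8%) and 6 of 10 lower (background 23.7%, 45.5% in either direction), and 6 of 10 did not overlap (background 21.6%). The background is the share of all genes tested that passed in that direction, or whose libraries did not overlap. In bulk tissue, fewer cells of a type and less RNA per cell cannot be told apart.

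Chrm1, the M1 receptor of cortical and hippocampal pyramidal neurons (GRCm38 chromosome 19, 8663789 to 8683587, plus strand), was far lower in MDTH than in the other tissues. Its libraries held 372, 171 and 254 normalized counts in MDTH high performers and 236, 373 and 403 in MDTH low performers. HPF held 16546, 14961 and 15458 in high and 18173, 17303 and 17807 in low performers. PFC held 10925, 10018 and 9917 in high and 12957, 10319.9 and 10663 in low performers. Every MDTH library lay below every PFC library, and every PFC library below every HPF library. The log2 difference was -5.22 (SE 0.16, adjusted p = 1.17e-12) in MDTH against PFC, -5.85 (SE 0.16, adjusted p = 1.97e-13) in MDTH against HPF and 0.63 (SE 0.16, adjusted p = 0.00355) in HPF against PFC. Among high performers alone, the last of these was 0.61 with an adjusted p of 0.0714.

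Chrm3, the other Gq-coupled member (chromosome 13, 9875486 to 10360847, minus strand), spread less widely. In MDTH it averaged 1871 ± 559 normalized counts among high performers and 1725 ± 333 among low performers. HPF averaged 2462 ± 312 among high performers and 3333 ± 621 among low performers, and PFC 4053 ± 141 among high performers and 4628 ± 255 among low performers (SD, n = 3 each). It was lower in MDTH than in PFC by a log2 difference of -1.30 (SE 0.13, adjusted p = 8.68e-07) and lower in HPF than in PFC by -0.61 (SE 0.13, adjusted p = 0.00141). In MDTH against HPF the difference was -0.69 (SE 0.13, adjusted p = 0.000323), and -0.43 with an adjusted p of 0.0927 among high performers alone. The gene is overlapped by 6 others in the GENCODE M21 annotation. Of these, Gm26861, annotated as antisense, and Gm47406, a processed pseudogene, lie on the other strand. The use of strand in counting is not given in the sources used here.

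Chrm2, a Gi/o-coupled receptor that also serves as an autoreceptor on cholinergic terminals (chromosome 6, 36388084 to 36528414, plus strand), was lowest in HPF. HPF libraries held 113, 495 and 93.1 normalized counts in high and 171, 263 and 172 in low performers. MDTH held 2724, 2211 and 1185 in high and 2868, 4335 and 4719 in low performers, and PFC held 1489 to 1807 in high and 1642 to 1917 in low performers. Every HPF library lay below every library of the other tissues, and MDTH overlapped PFC. The log2 difference was 3.88 (SE 0.33, adjusted p = 6.48e-08) in MDTH against HPF and -3.20 (SE 0.33, adjusted p = 1.17e-06) in HPF against PFC. MDTH against PFC gave 0.68 (95% interval -0.02 to 1.38, adjusted p = 0.113), and 1.14 with an adjusted p of 0.00447 among low performers alone. Of the HPF libraries, the highest was HPF high 2, in which the thalamic relay marker sum was also highest; its part in the result was not tested.

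Chrm4, the other Gi/o-coupled member, abundant in striatal projection neurons (chromosome 2, 91927249 to 91928688, plus strand, a single exon of 1440 bases in the annotation), decreased in the order PFC, HPF, MDTH. MDTH libraries held 109.5, 21.1 and 18.3 normalized counts in high and 121, 88.8 and 92.6 in low performers. HPF held 304, 270.4 and 147 in high and 371, 327 and 329 in low performers. PFC held 988, 791 and 679 in high and 1816, 1194 and 1052 in low performers. The 3 tissues did not overlap. Chrm4 gave log2 differences of -4.10 (SE 0.34, adjusted p = 1.01e-07) in MDTH against PFC, -2.22 (SE 0.34, adjusted p = 4.53e-05) in MDTH against HPF and -1.88 (SE 0.34, adjusted p = 0.000344) in HPF against PFC. The summed level of 6 striatal projection markers was 1432 to 4054 in MDTH, 5370 to 9453 in HPF and 6789 to 11073 in PFC; its part in the result was not tested.

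**Figure D2:**
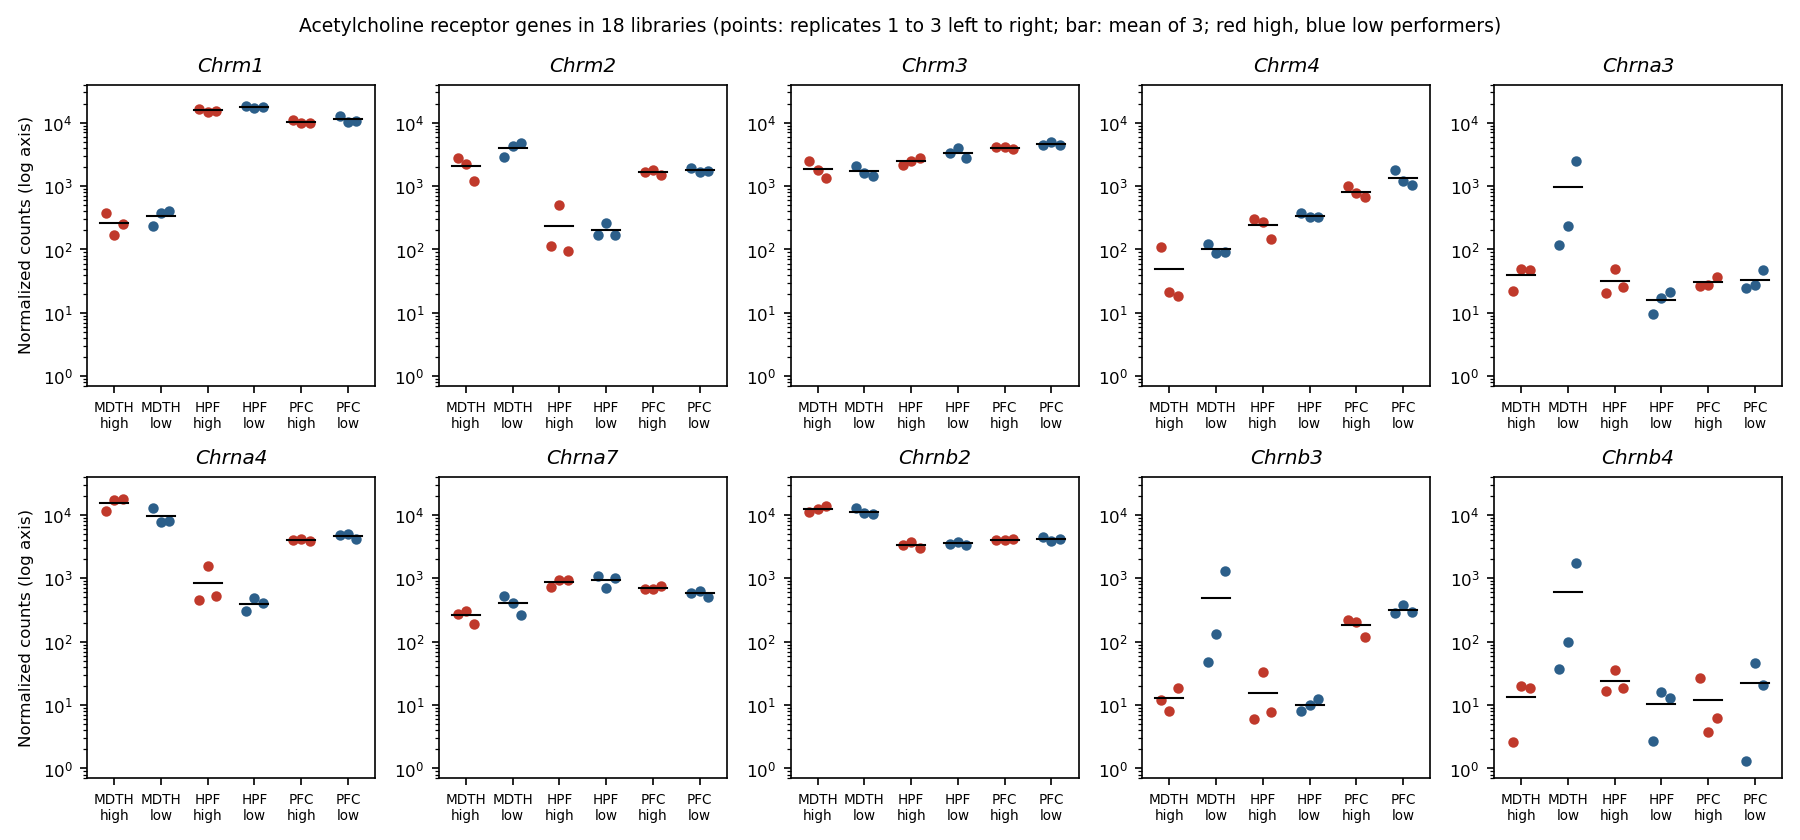
Each panel plots the normalized counts (log axis) of 1 receptor gene in 18 libraries, as points for replicates 1 to 3 from left to right and a bar for the mean of 3, by tissue, with high performers in red and low performers in blue. Chrm1 lies between 171 and 403 in MDTH and at 9917 or more elsewhere, and Chrna3 reaches 2502 in 1 MDTH library of a low performer.

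Chrna4, the alpha subunit of the main high-affinity receptor (chromosome 2, 181018380 to 181043546, minus strand), was highest in MDTH. MDTH libraries held 11549, 17287 and 17754 normalized counts in high and 12739, 7811 and 7893 in low performers. HPF held 448, 1557 and 524 in high and 301, 482 and 410.0 in low performers, and PFC held 3865 to 4138 in high and 4139 to 4924 in low performers. The 3 tissues did not overlap. Chrna4 gave log2 differences of 1.46 (SE 0.25, adjusted p = 0.000180) in MDTH against PFC, 4.49 (SE 0.25, adjusted p = 5.02e-10) in MDTH against HPF and -3.03 (SE 0.25, adjusted p = 1.09e-07) in HPF against PFC. HPF high 2 again held the highest HPF value; without it the last 2 differences were 4.77 and -3.31.

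Chrnb2, the beta subunit that joins it (chromosome 3, 89746195 to 89764632, minus strand), followed the same order with less spread. MDTH libraries held 10939.8, 12614 and 13596 normalized counts in high and 12697, 10900.4 and 10340.4 in low performers. The other libraries held 2990 to 3679 in HPF high, 3403 to 3708 in HPF low, 3992 to 4198 in PFC high and 3887 to 4525 in PFC low performers. Every MDTH library lay above every other library. Chrnb2 gave log2 differences of 1.52 (SE 0.07, adjusted p = 1.13e-10) in MDTH against PFC and 1.78 (SE 0.07, adjusted p = 1.21e-11) in MDTH against HPF. HPF against PFC gave -0.26 (SE 0.07, adjusted p = 0.00741), which did not pass among high performers alone (adjusted p = 0.0659) or low performers alone (adjusted p = 0.0864). The gene overlaps Adar on the other strand.

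Chrna7, the subunit of the homomeric channel (chromosome 7, 63098692 to 63212569, minus strand), was lowest in MDTH. MDTH held 278, 309.7 and 192 normalized counts in high and 531, 412 and 264 in low performers. The level was 860.2 ± 122 in high and 943 ± 215 in low performers of HPF, and 709 ± 52.7 in high and 579 ± 58.8 in low performers of PFC (SD, n = 3 each). MDTH and HPF did not overlap, whereas MDTH low 1 lay within the PFC range. The log2 difference was -1.03 (SE 0.17, adjusted p = 0.000148) in MDTH against PFC and -1.50 (SE 0.17, adjusted p = 1.71e-06) in MDTH against HPF. Among low performers alone the first was -0.58 with an adjusted p of 0.1505. HPF against PFC gave 0.47 (SE 0.17, adjusted p = 0.0327), a call lost, at adjusted p 0.0607 to 0.0812, without any 1 of PFC high 1, PFC high 2, PFC low 3, HPF high 2, HPF high 3, HPF low 1 or HPF low 3. Over all 23 alternative settings it ran from 0.27 to 0.68 and passed in 14, with an adjusted p as high as 0.328.

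Chrna3 and Chrnb4, the ganglionic pair, lie next to each other on chromosome 9 with 1591 bases between them (55010111 to 55026562 and 55028154 to 55048779, minus strand). Outside MDTH both were low: Chrna3 held 9.42 to 49.4 normalized counts in HPF and 24.9 to 46.7 in PFC, and Chrnb4 held 2.69 to 35.6 in HPF and 1.31 to 45.8 in PFC. Chrna3 was higher in MDTH than in PFC by a log2 difference of 1.98 (SE 0.56, adjusted p = 0.00983) and than in HPF by 2.495 (SE 0.56, adjusted p = 0.00123). Among high performers alone these differences were 0.31 (adjusted p = 0.661) and 0.33 (adjusted p = 0.578), and without MDTH low 3 they were 1.33 and 1.84. Chrnb4 gave 2.01 (SE 0.92, adjusted p = 0.0977) in MDTH against PFC and 1.63 (SE 0.92, adjusted p = 0.146) in MDTH against HPF. The second was -1.05 (adjusted p = 0.346) among high performers alone and 4.30 (adjusted p = 0.0389) among low performers alone. With libraries that share a name number treated as a block, MDTH against PFC passed at an adjusted p of 0.0406. Neither gene passed in HPF against PFC, and within HPF both were highest in HPF high 2. Chrnb4 is overlapped by Gm47877, annotated as antisense, on the other strand.

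Chrnb3, an accessory subunit of habenular and midbrain neurons (chromosome 8, 27368711 to 27399730, plus strand), had its steadiest level in PFC. PFC libraries held 222, 207 and 119.6 normalized counts in high and 285, 381 and 296 in low performers. HPF held 6.12, 33.0 and 7.68 in high and 8.12, 10.2 and 12.3 in low performers. In MDTH it ran from 7.93 in a high performer to 1299 in a low performer. HPF was below PFC by a log2 difference of -4.32 (SE 0.61, adjusted p = 2.86e-05), and every HPF library lay below every PFC library. MDTH against PFC gave -2.20 (SE 0.61, adjusted p = 0.00845) although the means over 6 libraries were 253 in MDTH and 252 in PFC, and MDTH low 3 alone held 1299. Among low performers alone the difference was -0.64 with an adjusted p of 0.686. MDTH against HPF gave 2.13 (SE 0.61, adjusted p = 0.00700), and 0.04 with an adjusted p of 0.961 among high performers alone.

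**Figure D3:**
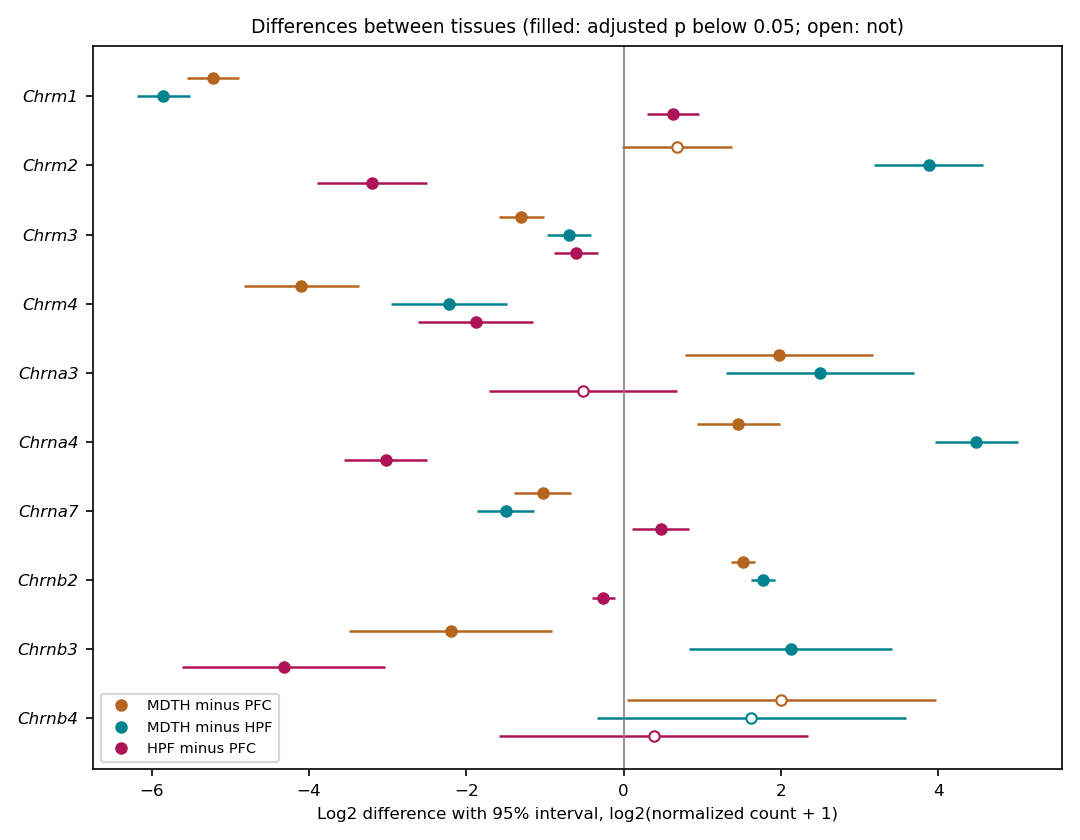
Points are log2 differences between tissues on the log2(normalized count + 1) scale with 95% intervals, averaged over performance, for MDTH minus PFC, MDTH minus HPF and HPF minus PFC; filled points passed and open points did not. Chrm1 and Chrm4 lie left of 0 and Chrna4 and Chrnb2 right of 0 in both MDTH contrasts.

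High performers were compared with low performers within each tissue, the comparison the labels are built on. In MDTH, 1 of 10 genes passed and was lower in high performers (background 12.5% lower, 12.5% higher, 25.0% in either direction). The groups did not overlap for 4 of the 10 (background 44.2%). The median log2 difference over the 10 was -0.81, beside -0.00 over all 17861 genes tested. In HPF 0 of 10 passed (background 0.0111% higher, 0.00553% lower, 0.0166% in either direction), with 2 at an unadjusted p below 0.05 in limma (13.3% of all genes tested), and 3 of 10 did not overlap (background 20.0%). In PFC 0 of 10 passed (background 3.22% higher, 2.63% lower, 5.85% in either direction), with 3 at an unadjusted p below 0.05 (24.1% of all genes tested), and 5 of 10 did not overlap (background 30.9%). The median was -0.10 in HPF and -0.16 in PFC, against -0.01 over all genes tested in each.

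The gene that passed in MDTH was Chrnb3. It held 12.2, 7.93 and 18.5 normalized counts in high performers and 48.6, 131 and 1299 in low performers. Every high library lay below every low library, and the low libraries spread over 26.7 times. The log2 difference was -3.95 (SE 1.10, adjusted p = 0.0393). The call did not hold without MDTH high 1, high 2, high 3, low 2 or low 3 (adjusted p 0.0509 to 0.112), and it strengthened to -4.97 without low 1. Without low 3 the difference was -2.61.

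The ganglionic pair was also lower in every high than in every low library of MDTH, without passing. Chrna3 held 22.1, 49.99 and 47.1 normalized counts in MDTH high performers and 119, 230.5 and 2502 in MDTH low performers, a log2 difference of -3.42 (SE 1.05, adjusted p = 0.0523). Chrnb4 held 2.60, 19.7 and 18.3 in high performers and 37.8, 97.2 and 1718 in low performers, a log2 difference of -4.05 (SE 1.40, adjusted p = 0.0743). In both, low 3 held the most and high 1 the least. In the fit to all 18 libraries both passed, Chrna3 with an adjusted p of 0.00444 and Chrnb4 with 0.0290, as did Chrm4 and Chrnb3, and the same number of genes, 4, passed when the name number was added as a block. Both also passed without low 1, at -4.31 (adjusted p = 0.0298) for Chrna3 and -5.18 (adjusted p = 0.0425) for Chrnb4. Without low 3 the differences were -2.12 for Chrna3 and -2.45 for Chrnb4. Without low 2 and low 3 together they were -1.65 for Chrna3, -1.78 for Chrnb4 and -1.91 for Chrnb3. Low 1 was then the only low library, so no call is drawn from that fit.

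In MDTH the summed markers of the habenula were higher in every low than in every high library, as were these 3 subunits. The summed level of 8 habenular markers was 1969, 2136 and 1552 in MDTH high performers and 4515, 12661 and 34932 in MDTH low performers. In PFC this sum was 4502 to 4685 in high and 3495 to 4385 in low performers. In HPF it was 1468 to 2729 in high and 3760 to 5369 in low performers. MDTH low 1 thus lay within the ranges of PFC and HPF. In HPF, where the sum was higher in low performers, the log2 differences were 0.92 for Chrna3, 0.21 for Chrnb3 and 1.29 for Chrnb4. In PFC, where it was higher in high performers, they were -0.07, -0.85 and -0.44, and none of these passed. The cholinergic neuron list shares Chat and Slc5a7 with the habenular list. In MDTH its 3 markers summed to 107, 32.9 and 52.4 in high performers and to 82.8, 262 and 2460 in low performers. Pou4f1, a transcription factor of habenular neurons, fell in high performers by 5.03 on the log2 scale (adjusted p = 0.0172). Slc18a3, the vesicular acetylcholine transporter, was at 0 in MDTH high 1, high 2 and low 1, at 3.93 in high 3, at 13.5 in low 2 and at 328 in low 3. Chat, the enzyme that makes acetylcholine, held 15.6, 6.58 and 15.7 in high performers and 17.0, 29.4 and 571 in low performers. The part of these markers in the receptor differences was not tested.

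**Figure D4:**
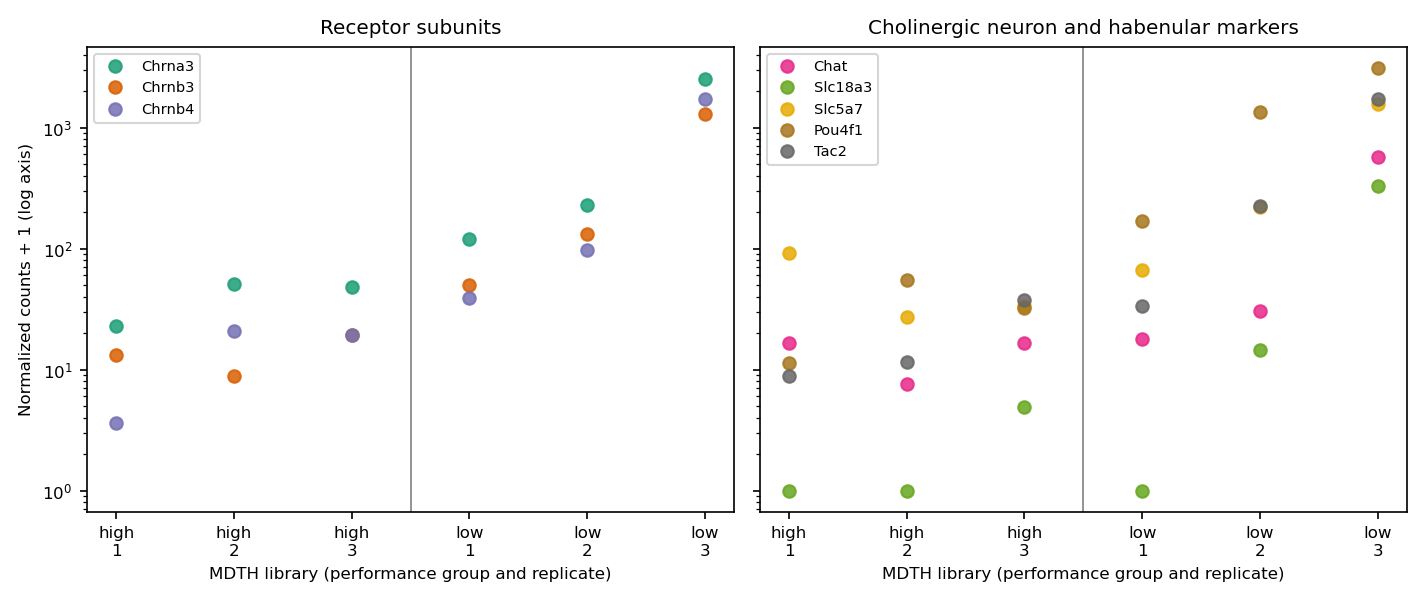
Normalized counts plus 1 (log axis) in the 6 MDTH libraries, high performers left of the line and low performers right of it, for Chrna3, Chrnb3 and Chrnb4 in the left panel and for Chat, Slc18a3, Slc5a7, Pou4f1 and Tac2 in the right panel. The subunits and the markers are highest in low 3, where Chrna3 holds 2502 and Chat 571 normalized counts.

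Among the more abundant genes in MDTH, Chrna4 gave a log2 difference of 0.72 (95% interval 0.17 to 1.28, adjusted p = 0.0632) with the groups overlapping, since low 1, at 12739, lay above high 1, at 11549. Without high 1 it was 0.93 (adjusted p = 0.0293), and without low 1 it was 0.96 (adjusted p = 0.0216). Over 17 alternative settings it ran from 0.26 to 0.96 and passed in no other. Its partner Chrnb2 gave 0.13 (95% interval -0.14 to 0.40, adjusted p = 0.431). The summed thalamic relay markers were 279590.2 to 318220 in high performers and 136982 to 198672 in low performers, and their part in these values was not tested. Chrm2 gave -1.01 (95% interval -1.77 to -0.25, adjusted p = 0.0587) with no overlap between groups, and passed without high 1 (adjusted p = 0.0331) or without low 1 (adjusted p = 0.0489). It ran from -1.26 to -0.57 over 17 alternatives and passed in no other. Chrm4 gave -1.48 (adjusted p = 0.142), and -2.29 (adjusted p = 0.00841) without high 1, the only high library near the low ones. It passed in 3 of 17 alternatives, which ran from -2.29 to -1.03. The summed striatal projection markers were 2931, 1432 and 1581 in MDTH high performers and 4013, 4054 and 4029 in MDTH low performers, with high 1 again nearest the low libraries, and their part in the Chrm4 values was not tested. Chrna7 gave -0.60 (adjusted p = 0.182). Without low 2 and low 3 it was -1.06 in the 16-library fit, where low 1, the highest MDTH library at 531, was the only low library. Among the rest, Chrm1 gave -0.38 (adjusted p = 0.434) and Chrm3 0.09 (adjusted p = 0.801).

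In PFC the largest differences were those of Chrnb3, at -0.85 (95% interval -1.50 to -0.19, adjusted p = 0.124), and Chrm4, at -0.70 (95% interval -1.25 to -0.15, adjusted p = 0.125). For both, every high library lay below every low library. Chrm3 gave -0.19 (adjusted p = 0.191) and Chrna4 -0.21 (adjusted p = 0.222), again with no overlap. Chrna7 alone was in the other direction, at 0.29 (95% interval -0.02 to 0.61, adjusted p = 0.231), with 681, 677 and 770.2 normalized counts in high performers and 592, 631 and 515 in low performers. The remaining 5 genes lay between -0.44 for Chrnb4 and -0.03 for Chrnb2, with overlapping groups.

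In HPF Chrm3 gave -0.43 (95% interval -0.79 to -0.06, adjusted p = 0.328) and Chrm1 -0.18 (95% interval -0.36 to -0.00, adjusted p = 0.368). Chrm1 libraries did not overlap, nor did those of Chrm4, at -0.57 (adjusted p = 0.434), or Chrnb4, at 1.29 (adjusted p = 0.453). With lane as a term, Chrm3 was 0.018 and Chrm1 -0.20. The only lane with both groups held HPF high 3 and HPF low 3, so these values compare those libraries alone. Chrna4 gave 0.87 (adjusted p = 0.460), and 0.31 without HPF high 2, the library in which the summed thalamic relay markers reached 27481, against 10953 to 17096 in the other 5. Chrna3 gave 0.92 (adjusted p = 0.464) with overlapping groups.

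**Figure D5:**
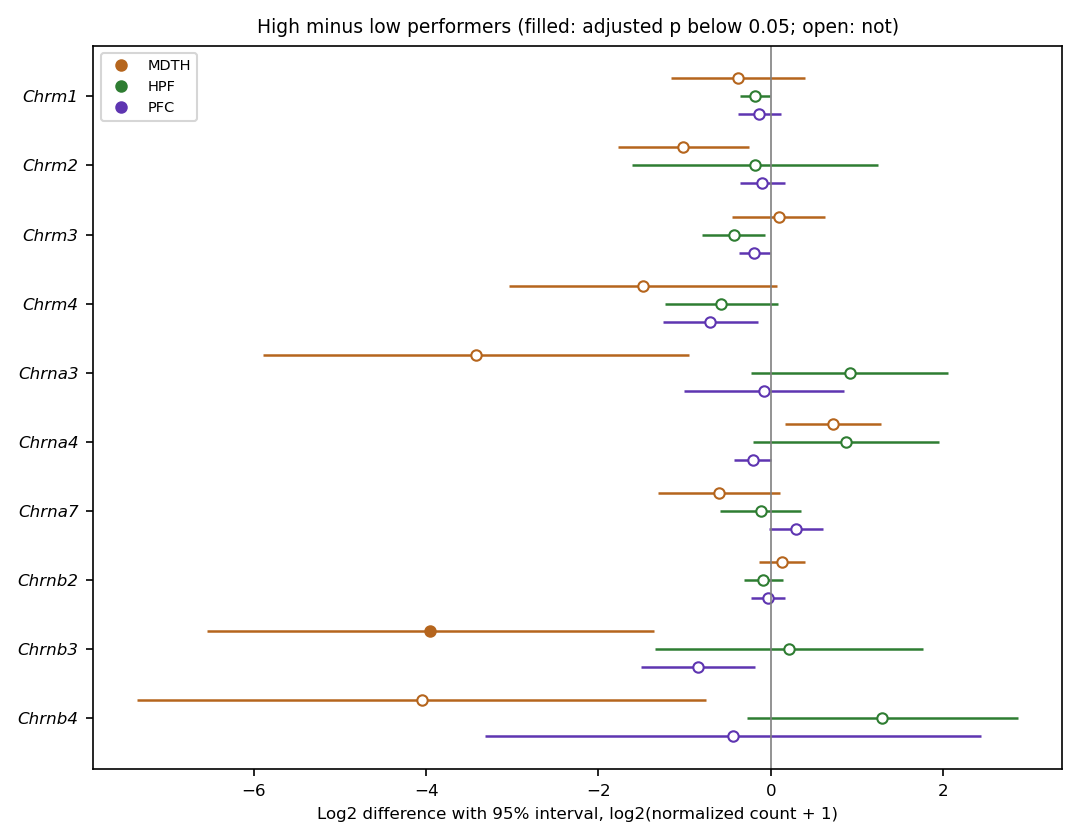
Points are log2 differences of high minus low performers on the log2(normalized count + 1) scale with 95% intervals, by tissue (MDTH, HPF, PFC); the filled point passed and the open points did not. The only filled point is Chrnb3 in MDTH, at -3.95.

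The 18-library fit also gave a test of whether the high minus low difference, with its sign, differed between tissues (an interaction). All 6 groups share an estimate of spread per gene in that fit. Between MDTH and HPF, 2 of 10 genes passed, both lower (background 8.52% lower, 10.5% higher, 19.0% in either direction). Chrna3 gave -4.34 (SE 1.12, adjusted p = 0.0139) and Chrnb3 -4.16 (SE 1.21, adjusted p = 0.0256). The Chrnb3 call was lost without MDTH high 2, HPF high 2 or HPF low 1 (adjusted p 0.0559 to 0.0615). Chrnb4 gave -5.34 (SE 1.85, adjusted p = 0.0554), and passed with the name number as a block at -5.62 (adjusted p = 0.0156). Without MDTH low 3 the values were -3.04 for Chrna3 and -2.83 for Chrnb3. Between MDTH and PFC 0 of 10 passed (background 0.871% higher, 2.54% lower, 3.41% in either direction), with 3 at an unadjusted p below 0.05 in limma (15.7% of all genes tested), and between HPF and PFC 0 of 10 passed (background 3.37% higher, 5.77% lower, 9.14% in either direction), with 1 below 0.05 (24.0% of all genes tested).

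Other cholinergic genes were taken as a list of 24 further subunits, transmitter enzymes, transporters and receptor-binding proteins. In MDTH, 17 of them were tested and 4 were lower in high performers, against 0 higher (12.5% of all genes tested in each direction, 25.0% in either), with a median of -1.03. Chrm5, the fifth muscarinic receptor, held 10.4, 3.95 and 3.93 normalized counts in high and 188, 109 and 63.8 in low performers, a log2 difference of -4.08 (SE 0.56, adjusted p = 0.00507). It was tested only because of its level in low performers, since its mean in high performers, 6.10, is under the minimum mean of 10. Ly6h, whose product binds nicotinic receptors, fell by 1.72 (adjusted p = 0.00981), Lypd1, of the same protein family, by 0.96 (adjusted p = 0.0264) and Ache, the enzyme that breaks acetylcholine down, by 0.82 (adjusted p = 0.0289). In PFC (3.22% of all genes tested higher, 2.63% lower), 1 of 17 was higher, Tmem35a, a chaperone of nicotinic receptors, at 0.59 (adjusted p = 0.0482), and 1 was lower, Ly6e, at -0.34 (adjusted p = 0.0433). In HPF 0 of 17 passed, with 7 at an unadjusted p below 0.05 in limma, as had 13.3% of all genes tested.

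Between tissues the same list had 19 tested genes, of which 3 were higher and 5 lower in MDTH than in PFC, 8 higher and 6 lower in MDTH than in HPF, and 2 higher and 7 lower in HPF than in PFC. Of all genes tested, 40.7% passed in either direction in MDTH against PFC, 58.1% in MDTH against HPF and 45.5% in HPF against PFC. Chrna5, an accessory subunit whose gene belongs to the cluster of Chrna3 and Chrnb4, averaged 6.88 normalized counts in MDTH, 154 in HPF and 555 in PFC. Its log2 difference was -6.43 (SE 0.44, adjusted p = 8.60e-09) in MDTH against PFC and -2.47 (SE 0.44, adjusted p = 0.000244) in HPF against PFC. Its highest level was in PFC, where Chrna3 and Chrnb4 were low. Ache averaged 9070.3 in MDTH, 2531 in HPF and 3679 in PFC, with log2 differences of 1.23 (adjusted p = 1.06e-06) in MDTH against PFC and 1.79 (adjusted p = 8.88e-09) in MDTH against HPF.

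The genes whose pattern was most like each receptor were taken by Pearson correlation of log2 values over the 18 libraries among 14593 protein-coding genes. These libraries share tissue, so the values describe tissue pattern and carry no p. Chrm1 was near to Zfp831 (0.994) and Chst15 (0.993). Chrna4 was nearest to Vwc2l (0.989), Opn3 (0.988) and Far2 (0.986), and Chrnb2 to Ret (0.989), Rsrc1 (0.989) and Fchsd2 (0.985). Chrm2 was nearest to Frmd3 (0.978), Trim66 (0.978) and Zdbf2 (0.976), Chrm3 to Stac2 (0.946), Rapgef4 (0.932) and Add1 (0.926), and Chrm4 to Cacng3 (0.964), Ssbp2 (0.959) and Cckbr (0.958). Chrna7 was nearest to Asphd2 (0.938), Thra (0.931) and Slc30a3 (0.930). Chrna3 was nearest to Prkcq (0.921), Nectin2 (0.914) and Ddc (0.905), Chrnb3 to Trim62 (0.918), Nrg1 (0.916) and Masp1 (0.910), and Chrnb4 to Ano1 (0.850), Lamc3 (0.842) and Prkcq (0.835). With the 6 group means taken out, the genes nearest to Chrna3 were Slc18a3 (0.869), Chat (0.840) and Tac2 (0.824). Those nearest to Chrnb3 were Msi2 (0.900), Slc18a3 (0.895) and Hps3 (0.889). Those nearest to Chrnb4 were Zfp37 (0.882), Prrg2 (0.880) and Lamc3 (0.854). In each of these 3 neighbours of Chrna3, MDTH low 3 was the highest MDTH library.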

How the data were processed

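RNA of 18 libraries was sequenced after preparation with a stranded mRNA kit, per the labels' protocols. The authors deposited 1 table of normalized counts per gene (a signal scaled by library, not whole reads), and the submitters' processing notes name STAR, Salmon and DESeq2 without saying which step each served. Genome build, annotation and the use of strand are not given in the sources used here. All columns were mapped to samples by name, and 0 were left over. Whole reads could not be recovered, so no count test was run, and no 2 libraries were identical (0 pairs). Gene positions come from GENCODE M21 on GRCm38, matched by identifier, and upstream sequences from RefSeq.

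Differences were tested two-sided with limma 3.58.1 in R 4.3.3 on log2(normalized count + 1) for genes with a mean of at least 10, with a trended variance and Benjamini-Hochberg adjustment over all genes tested, at a threshold of 0.05. Fold changes on this scale understate changes of low genes. High and low performers were compared within each tissue (6 libraries), and tissues and interactions in 1 fit to 18 libraries with 6 group means. The comparison of high and low performers within a tissue was tested on simulated counts with known changes, and the tissue and interaction fits were not. The simulation set the same spread for every gene, so it does not cover genes as variable as Chrna3 in MDTH low performers. Python 3.11.15 with pandas 2.3.3, numpy 2.4.6 and matplotlib 3.10.9 did the rest.

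The numbers in the library names recur across tissues, and deviations of same-numbered libraries correlated at 0.346 to 0.611 over 11 pairs, so these numbers pair libraries. Title numbers did not (-0.127 to 0.0923 over 9 pairs). All 10 members are named, with up to 4 passing genes of smallest p from the other cholinergic genes, the 2 of lowest p where none passed, and the 3 most alike genes per member over 18 libraries, of which 1 is not reported here. Members and lists were chosen with earlier results of these data known. Alternatives covered the pseudocount, the filter, the scaling, the variance trend, the fitted libraries, replicate blocks and leaving out each library.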

Additional observations from a re-analysis of the deposited data

Results flagged for a closer look

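The difference between high and low performers itself differed between MDTH and HPF for 2 of the 10 receptor genes, by the interaction term of the limma fit to 18 libraries, which is near the 19.0% of all genes tested that passed it. That fit shares an estimate of spread per gene over all groups, and both genes spread most in MDTH low performers. For Chrna3 the interaction was -4.34 on the log2 scale (adjusted p = 0.0139), with a performance difference of -3.42 in MDTH and 0.92 in HPF. For Chrnb3 it was -4.16 (adjusted p = 0.0256), with -3.95 in MDTH and 0.21 in HPF, and it did not pass without MDTH high 2, HPF high 2 or HPF low 1 (adjusted p 0.0559 to 0.0615). In MDTH all 3 high libraries lay below all 3 low libraries for both genes, and in HPF the groups overlapped for both. Without MDTH low 3 and HPF high 2 together, a choice made after seeing the data, the interactions were -2.68 (adjusted p = 0.0207) for Chrna3 and -2.12 (adjusted p = 0.0455) for Chrnb3. The summed habenular markers were highest in MDTH low 3, and their part in these differences was not tested.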

How the results depend on the processing

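Counts of passing genes between tissues stayed within 1.5 times the reported count in 68 of 69 alternatives and equal to it in 52. They ran from 7 to 9 in MDTH against PFC (8 reported), 6 to 10 in MDTH against HPF (9 reported) and 5 to 8 in HPF against PFC (8 reported). Performance counts stayed within 1.5 times in 38 of 50 and interaction counts in 58 of 63. The number of genes passing between high and low performers in MDTH, 1 in the reported fit, was 0 with a pseudocount of 8, 0 with no variance trend, 2 with a mean of at least 50 and 4 with all 18 libraries in 1 fit, and it ran from 0 to 5 when libraries were left out in turn. With replicate blocks it was 3 by the title number and 4 by the name number in the 18-library fit, which was chosen after seeing the data. Leaving out libraries gave 0 to 2 passing interactions of MDTH with PFC and 1 to 3 of MDTH with HPF. Among high performers only, 5 genes passed in HPF against PFC. The share of all genes that passed under each alternative is not given here, so no result about the receptors is drawn from these counts. The cause of these changes was not tested.

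Several differences that did not pass changed sign. Equal totals gave Chrnb2 0.016 in PFC, and quantile scaling gave Chrm1 0.047 in the interaction of HPF with PFC. The name number as a replicate block gave 0.042 for Chrm1 and 0.00678 for Chrm2 there, and beside Chrnb4 in MDTH against PFC and in the interaction of MDTH with HPF it changed no other tissue or interaction call. Without the 2 MDTH low libraries highest in Pou4f1, Chrm1 was 0.10, Chrm3 -0.21 and Chrnb2 -0.042 in MDTH, where low 1 was then the only low library. With lane as a term, Chrm3 was 0.018 and Chrnb3 -0.61 in HPF, a comparison of HPF high 3 with HPF low 3 alone. Chrnb4 was -1.05 in MDTH against HPF among high performers (4.30 among low performers) and -0.49 in HPF against PFC among low performers. Without MDTH low 3 and HPF high 2 together, the interaction of MDTH with HPF was 0.066 for Chrm2 and 0.30 for Chrna4.

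Leaving out 1 library at a time, performance differences ran in PFC from -0.24 to 0.20 for Chrna3, -1.71 to 0.46 for Chrnb4 and -0.084 to 0.026 for Chrnb2, in MDTH from -0.13 to 0.30 for Chrm3, and in HPF from -0.94 to 0.26 for Chrm2 and -0.32 to 0.012 for Chrna7. Chrnb4 ran from -0.25 to 0.83 in HPF against PFC. Interactions of HPF with PFC ran from -0.15 to 0.011 for Chrm1, -0.84 to 0.36 for Chrm2, -0.10 to 0.45 for Chrm4 and -0.12 to 0.031 for Chrnb2. Those of MDTH with HPF ran from -0.47 to 0.086 for Chrm1 and -0.48 to 0.41 for Chrna4, and that of MDTH with PFC from -0.52 to 0.034 for Chrm1. Chrnb3 gave no value in HPF without HPF high 2, since it fell below the filter. With 3 libraries a group, low genes such as Chrnb4 have wide intervals.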

Other observations

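Genes that act downstream of muscarinic receptors were taken as a list of 21 G proteins, phospholipases, kinases, channels and regulators. In MDTH 6 were higher and 4 lower in high performers (12.5% of all genes tested in each direction), with a median log2 difference of 0.17 against -0.00 over all genes tested. Plcb4, a phospholipase C, was higher by 1.27 (adjusted p = 0.00470 in limma), Kcnq3, a subunit of the M-current potassium channel, by 1.36 (adjusted p = 0.00715) and Gnai1, a Gi alpha subunit, by 0.61 (adjusted p = 0.00494). The summed thalamic relay markers were also higher in high performers, at 279590.2 to 318220 against 136982 to 198672 in low performers, and their part in these differences was not tested. Prkca, a protein kinase C, was lower, with a log2 difference of -0.95 (adjusted p = 0.00363). In PFC 1 was higher and 1 lower (3.22% of all genes tested higher, 2.63% lower). Prkcb, another protein kinase C, was higher at 0.45 (adjusted p = 0.0313), and Gnao1, a Go alpha subunit, lower at -0.57 (adjusted p = 0.0173). In HPF 0 of 21 passed in limma, with 6 at an unadjusted p below 0.05, as had 13.3% of all genes tested.

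Between tissues the same list gave 4 higher and 10 lower in MDTH than in PFC, 8 higher and 10 lower in MDTH than in HPF, and 6 higher and 12 lower in HPF than in PFC. Of all genes tested, 40.7% passed in MDTH against PFC, 58.1% in MDTH against HPF and 45.5% in HPF against PFC. Plcb4 was higher in MDTH than in PFC by a log2 difference of 2.70 and than in HPF by 4.61, whereas Plcb1, of the same enzyme family, was lower in MDTH by -2.22 against PFC and by -1.91 against HPF. All 4 of these differences passed.

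In HPF, Chrm5 and Chrna5 did not pass between high and low performers, although their groups did not overlap. Chrm5 held 34.6, 50.1 and 76.4 normalized counts in HPF high performers and 6.76, 18.3 and 7.48 in HPF low performers, a log2 difference of 2.26 (adjusted p = 0.185). Chrna5 held 162, 278 and 342 in HPF high performers and 14.1, 88.5 and 38.6 in HPF low performers, a log2 difference of 2.73 (adjusted p = 0.191). The interaction of MDTH with HPF was -6.34 (adjusted p = 0.0006002) for Chrm5 and -4.03 (adjusted p = 0.00526) for Chrna5. Chrna5 was near the floor in MDTH, with 6.51, 2.63 and 1.31 normalized counts in high performers and 14.6, 3.39 and 12.8 in low performers, groups that overlapped, and it was not tested between them there.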
